A study of Rattus norvegicus with 66 samples.

Results

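The comparison described here set male (XY) rat pups of dams given the low dose of chlorpyrifos against male control pups. It was made up of every library of group CPF1 from a male pup, which came from 4 pups of 4 litters, and every library of the male control groups CONF and CONSC, which came from 9 pups, 13 of the 64 pups in the series. CPF1 dams received 1 mg/kg body weight per day of chlorpyrifos under the skin during pregnancy and lactation. CONSC dams (5 male pups) were the controls for injection, and CONF dams (4 male pups), given soy-free chow, the controls for feeding. Only CONSC thus matches CPF1 in route, and with both control groups combined, injection is part of the difference between CPF1 and CONF pups. All pups were Long Evans rats, all were killed on postnatal day 6 while exposure was still going on, and no genotype was altered. The vehicle differs between sources: the labels name saline for CONSC and the study's methods name dimethyl sulfoxide, in which chlorpyrifos was dissolved, so the part of the vehicle cannot be told apart from that of the control group. What was measured was polyadenylated RNA of dorsal hippocampus, dissected with a small strip of adjoining neocortex.

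Chlorpyrifos is an organophosphate insecticide. In the liver and brain it is oxidized to an oxon, which binds the serine in the active site of acetylcholinesterase and so lets acetylcholine build up at its receptors. Esterases, paraoxonases and other serine hydrolases, among them enzymes that degrade endocannabinoids, also meet the oxon. In the first postnatal week the rat hippocampus is still adding granule neurons to the dentate gyrus, its interneurons are settling and its GABA-A receptors are moving towards adult subunits and adult chloride gradients.

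Library totals ran from 12403502 to 19224320 assigned reads in CPF1 and from 10777044 to 34218370 in the controls, the highest being the control pup N2-2y whose 2 libraries were summed. Levels are given as CPM, read counts scaled to a common library size with the TMM method. The Y-linked gene Eif2s3y read 78.1 to 89.4 CPM in CPF1 and 80.1 to 99.3 CPM in controls, as the male labels require. Among hippocampal markers, Prox1, a dentate granule cell factor, read 105 ± 25.5 CPM in CPF1 and 113 ± 29.9 CPM in controls (mean ± SD, n = 4 and n = 9 pups here and below). Hippocampal subfield markers (18 entries tested of 23) summed to 836 to 1291 CPM in CPF1 and 941 to 1189 CPM in controls. Markers of neighbouring regions varied between pups. Thalamic markers (21 entries tested of 21) summed to 794 to 1739 CPM in CPF1 and 972 to 2157 CPM in controls. Striatal markers (17 of 17) summed to 656 to 1770 CPM and 512 to 1714 CPM, and choroid plexus markers (18 of 20) to 2503 to 4065 CPM and 1511 to 4224 CPM. Each of these ranges overlapped between the groups. Below, the 4 CPF1 values of a gene are always given in the order of litters 16, 21, 60 and 63.

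No gene passed the test between CPF1 and control males. In edgeR's quasi-likelihood test, 15618 genes were compared and 0 (0%) were called at an adjusted p (Benjamini-Hochberg) under 0.05, the smallest value being 0.977. At an unadjusted p under 0.05 there were 414 genes, 2.65% of those tested, with 210 (1.34%) higher and 204 (1.31%) lower in CPF1. DESeq2 called 0 genes (382 at the unadjusted level) and limma-voom with quality weights 0 (803 at that level). Against the injected CONSC controls alone, edgeR called 0 genes (261 at that level). With all 9 controls in edgeR, log2 fold changes had a median of -0.0016, and 49.3% of genes had the higher mean in CPF1. The 5th and 95th percentiles were -0.27 and 0.22. The 95% interval of the log2 fold change lay wholly within 2-fold for 15016 genes (96.1%) and within 1.5-fold for 12727 genes (81.5%), and its median half-width was 0.22. Since no adjusted p in this comparison was under 0.977, the fold changes that follow are given with their SE and with no further p, and every higher or lower mean below is a value that did not pass the test.

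**Figure D1:**
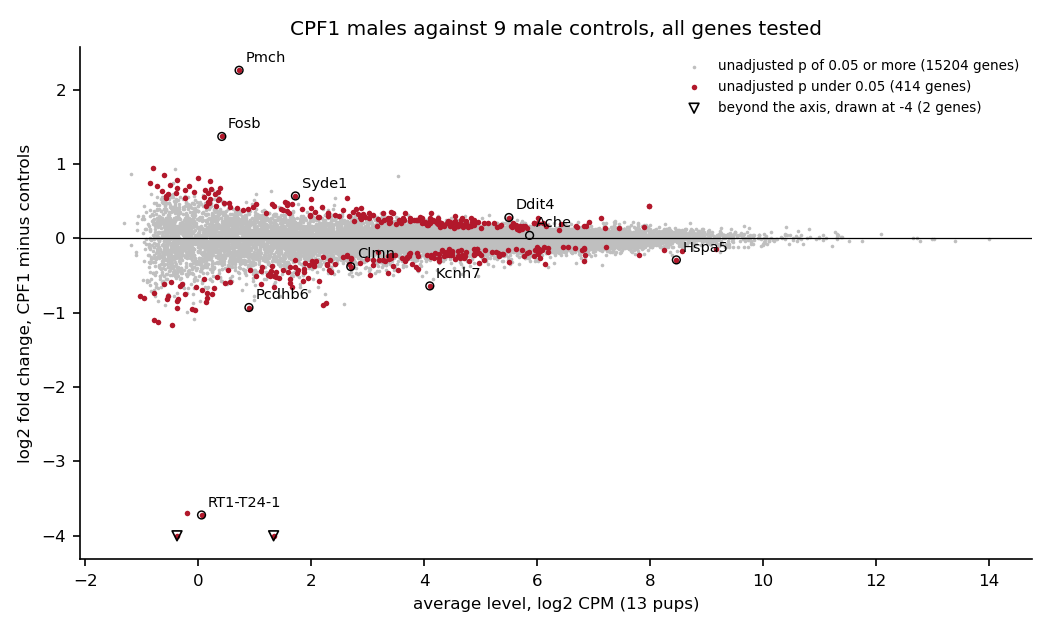
Log2 fold change of CPF1 minus controls against the average level (log2 CPM over 13 pups) for the 15618 genes tested, with the 414 genes at an unadjusted p under 0.05 in red and 2 genes beyond the axis drawn at its lower end. The cloud narrows around 0 as the level rises, and 2 genes (Pmch and Fosb) lie above 1 and 8 below -1.

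Acetylcholinesterase (Ache), the enzyme the oxon inhibits, read 46.5, 54.8, 63.6 and 72.7 CPM in the CPF1 pups. Controls ran from 42.2 to 78.6 CPM with a median of 57.5 CPM. Every CPF1 pup was thus inside the control range, and the log2 fold change was 0.04 ± 0.14 (SE; 95% interval -0.25 to 0.33). Butyrylcholinesterase (Bche), which scavenges the oxon, read 8.75, 7.67, 7.30 and 10.3 CPM against 5.35 to 12.7 CPM (median 8.62) in controls. Its log2 fold change was -0.07 ± 0.18. Prima1 and Colq, which anchor the enzyme in membranes and at synapses, and Pnpla6, the neuropathy target esterase that other organophosphates hit, gave log2 fold changes of 0.06 ± 0.15, 0.11 ± 0.27 and 0.04 ± 0.06. Of the 6 genes in the cholinesterase list, 0 were at the unadjusted level, and their median was 0.04. The direction of that median turned with the litters: -0.16 with litters 16 and 21 alone and 0.18 with litters 60 and 63 alone.

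Among the 23 genes of acetylcholine synthesis and its receptors, 1 was at the unadjusted level and 13 had the higher mean in CPF1 (median 0.03). Over all genes tested, 2.65% were at that level and 49.3% had the higher mean. The 1 gene at the unadjusted level was Chrm2, the muscarinic receptor that holds back acetylcholine release from terminals. It read 1.82, 2.92, 1.60 and 2.73 CPM against 1.70 to 5.77 CPM (median 3.89) in controls, a log2 fold change of -0.65 ± 0.29. All 4 CPF1 pups were below the control median, and 1 was below the lowest control. Chrna7, the calcium-permeable nicotinic receptor of hippocampal interneurons, averaged 10.8 ± 2.12 CPM against 13.8 ± 5.21 CPM (-0.37 ± 0.27). Chrm1, the main muscarinic receptor of pyramidal cells, and Chrnb2, the common nicotinic beta subunit, gave 0.05 ± 0.13 and 0.05 ± 0.07.

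Other enzymes that meet the oxon or make it also held few members at the unadjusted level. Of 20 serine hydrolases and esterases tested, 1 was at the unadjusted level, where all genes gave 2.65%. It was Ces5a, a carboxylesterase, at 2.06, 1.51, 2.62 and 2.00 CPM against 2.00 to 4.37 CPM (median 2.69). Its log2 fold change was -0.45 ± 0.20, and 1 control pup, N3-4y, stood above all others at 4.37 CPM. Mgll, which degrades 2-arachidonoylglycerol, averaged 118 ± 8.48 CPM in CPF1 and 114 ± 14.1 CPM in controls (0.04 ± 0.09). None of 29 genes of oxon formation and detoxification and none of 12 endocannabinoid genes were at the unadjusted level in edgeR, and both medians were 0.03. Pon2, a paraoxonase family member of the brain, gave -0.02 ± 0.07, Por, the reductase that feeds cytochromes P450, 0.07 ± 0.09, and Cnr1, the CB1 receptor, -0.11 ± 0.16.

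**Figure D2:**
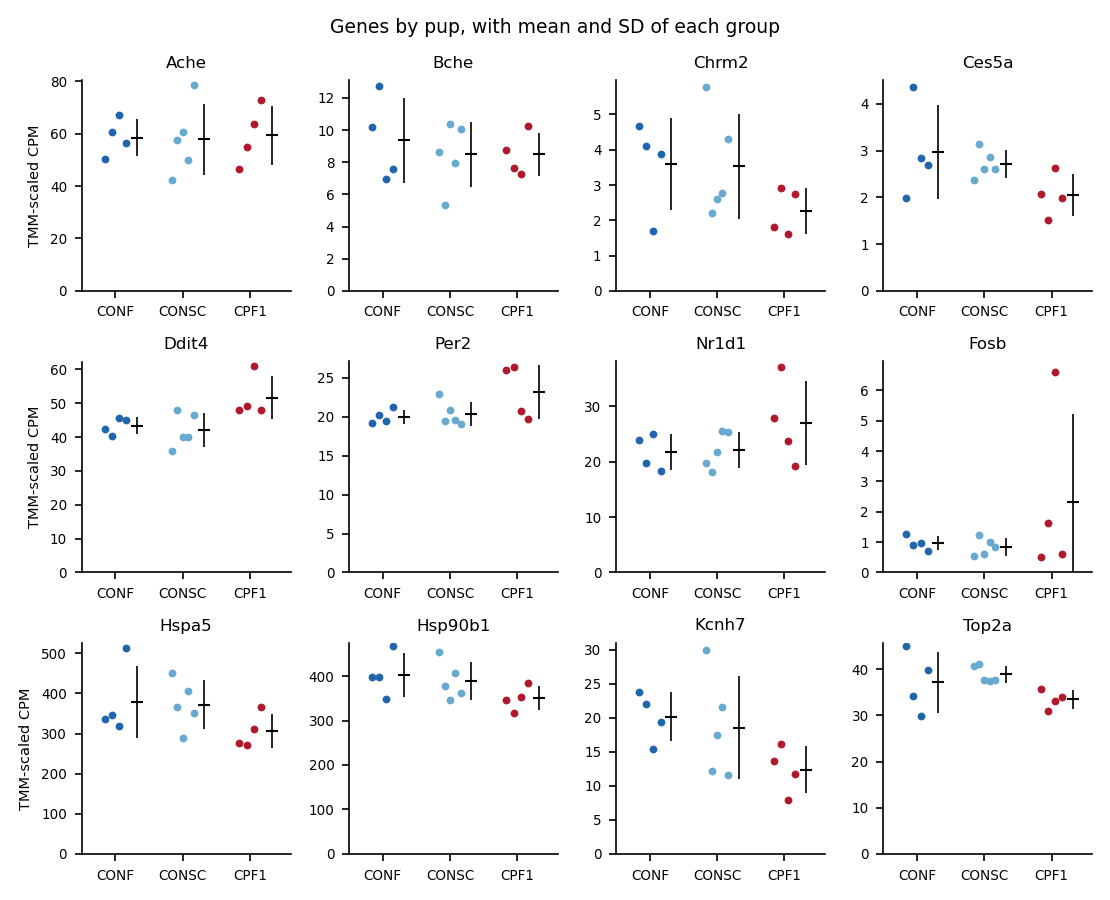
CPM of 12 genes in each CONF (4), CONSC (5) and CPF1 (4) pup, with the mean and SD of each group as a bar at the right of its points; the axes start at 0, where the lower end of the Fosb bar is cut. Ache and Bche of CPF1 pups lie inside the control range, Ddit4 lies above it in all 4, and Fosb stands high in 1 CPF1 pup at 6.59 CPM.

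The genes with the least overlap between the groups were few. All 4 CPF1 pups lay above all 9 controls for 6 genes (0.0384% of those tested) and below them for 7 genes (0.0448%). Ddit4, an inhibitor of mTORC1 that stress and glucocorticoids induce, was one of the 6. It read 48.1, 49.1, 61.1 and 48.0 CPM against 36.0 to 47.9 CPM (median 42.4), a log2 fold change of 0.28 ± 0.08. The margin was thin, since 3 CPF1 pups lay just above the highest control. Klf15, another glucocorticoid-induced gene, read 8.75, 7.98, 9.66 and 8.72 CPM against 6.16 to 8.20 CPM (median 7.01), or 0.33 ± 0.10. Syde1, a synaptic GTPase-activating protein, read 4.54, 4.23, 4.54 and 3.84 CPM against 2.05 to 4.05 CPM (median 2.91), or 0.57 ± 0.16. For Klf15 and Syde1, 3 of the 4 CPF1 pups were above the highest control.

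Further genes among the 12 with the smallest unadjusted p on the higher side were spread over unrelated functions. Sult2b1, a cholesterol sulfotransferase, read 8.00, 7.77, 6.27 and 6.06 CPM against 4.35 to 6.40 CPM (median 5.43), so that the pups of litters 16 and 21 were above the controls and the other two inside their range (0.38 ± 0.13). Mov10l1, an RNA helicase of the piRNA pathway, read 2.23, 1.77, 1.54 and 1.63 CPM against 0.56 to 1.54 CPM (0.68 ± 0.21). Kcns1, a modulatory potassium channel subunit, read 4.46, 2.92, 3.65 and 3.62 CPM against 2.14 to 3.25 CPM (0.45 ± 0.15). Get4, which helps insert tail-anchored proteins into membranes, averaged 60.1 ± 1.78 CPM against 53.3 ± 3.42 CPM and was also one of the 6 genes without overlap. The log2 fold changes of Get4, Ubtd1, Tigd5, the repressor Zbtb7a and the class I histocompatibility gene RT1-CE1 lay between 0.17 and 0.46. Near-identical copies of RT1 genes can share reads, so their counts are uncertain.

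Pmch, the precursor of melanin-concentrating hormone, a peptide of the lateral hypothalamus, had the largest fold change among the higher genes of 1 CPM or more and the least agreement between pups. It read 0.330, 0.209, 7.30 and 6.72 CPM, against 0.0925 to 2.27 CPM (median 0.494) in controls. The pups of litters 60 and 63 were above every control and those of litters 16 and 21 below the control median. The log2 fold change of 2.26 ± 0.68 became 3.22 with litters 60 and 63 alone, where Pmch was called (adjusted p = 0.0424, edgeR), and -1.52 with litters 16 and 21 alone. Litters 60 and 63 also shared the positive side of the first principal component, 24.7% of the variance, with 3 control pups.

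On the lower side, Clmn, a calponin-like membrane protein, was the gene with the smallest unadjusted p among those described and one of the 7 without overlap. It read 5.28, 5.32, 5.95 and 4.95 CPM against 5.99 to 7.75 CPM (median 7.14), or -0.38 ± 0.10. Ndst3, which places sulfate on heparan chains, read 8.91, 9.34, 9.09 and 10.5 CPM against 9.64 to 15.6 CPM (median 12.6), or -0.42 ± 0.12, with 3 CPF1 pups below the lowest control. Pdgfc, a platelet-derived growth factor ligand, read 3.88, 2.50, 2.30 and 3.10 CPM against 3.25 to 4.55 CPM (median 4.01), or -0.45 ± 0.15. Its values too put 3 CPF1 pups below all controls. Cep290, a protein of the ciliary transition zone, read 13.4, 12.4, 9.86 and 12.5 CPM against 12.2 to 19.7 CPM (median 15.2), or -0.39 ± 0.13. Pigb, an enzyme of the glycosylphosphatidylinositol anchor, read 1.90, 2.03, 2.18 and 1.85 CPM against 1.96 to 3.67 CPM (median 2.76), or -0.50 ± 0.17. Gabrr2, a subunit of GABA receptors, read 0.990, 1.36, 0.640 and 1.11 CPM against 1.05 to 1.84 CPM (median 1.59), or -0.60 ± 0.21. Of Slc25a35, Ptpn22, Rngtt, Dfna5 and Fam98b, the log2 fold changes lay between -0.62 and -0.16.

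**Figure D3:**
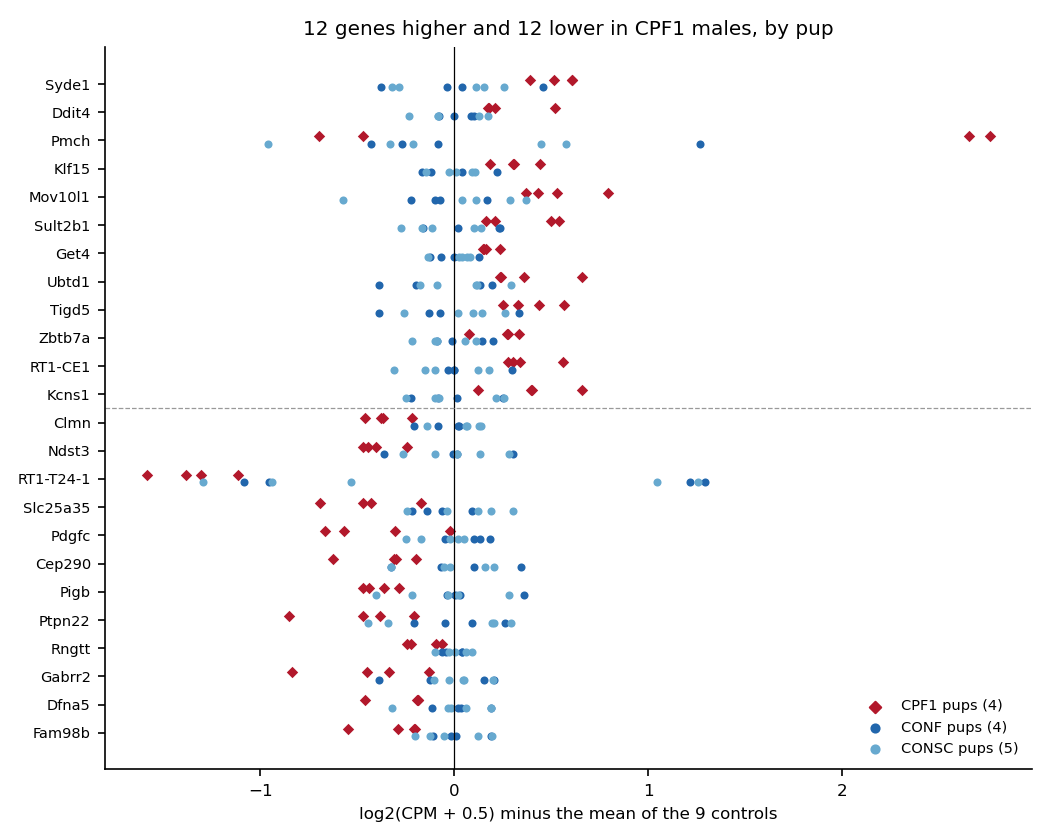
The 12 higher and 12 lower genes with the smallest unadjusted p, as log2(CPM + 0.5) of each pup minus the mean of the 9 controls, with CPF1 pups as red diamonds and CONF and CONSC pups as blue dots. For most of the 24 genes the CPF1 pups crowd at one edge of the controls and still touch them, while Pmch splits the CPF1 pups into 2 low and 2 high.

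A few entries had counts in some control pups and few or none in CPF1. RT1-T24-1, a class I histocompatibility gene among the 12 lower genes, had 0, 2, 3 and 1 counts in CPF1 and 2 to 52 counts in controls. Its fitted log2 fold change of -3.72 ± 1.18 rests on those few counts and on the prior count of the fit. RT1-N2, of the same family, had 0 counts in all 4 CPF1 pups, which allows up to 0.242 CPM in the shallowest of these libraries (counting error only). Among controls it had 79, 107, 139 and 115 counts in N4-7y, N5-2y, 13-1y and 6-5y and 0 or 1 in the other 5 pups. RragB had 46, 42, 33 and 31 counts in the 4 CONF pups and 0 in all CONSC and CPF1 pups. RragB and LOC100909655, whose counts split the pups in the same way, were the 2 genes called when CONF alone served as control, and that difference lies between CONF and the other groups. RT1-N2 was named after its values were seen.

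In the unfolded protein response, chaperones of 1 compartment had lower means side by side. The response restores folding in the endoplasmic reticulum, where the chaperones Hspa5 and Hsp90b1 and the lectin Calr work, and the factors ATF6 and XBP1 raise their transcription through the endoplasmic reticulum stress response element (ERSE), the letters CCAAT and CCACG with any 9 bases (N) between them. To show where that element lies, the bases upstream of the starts of Hspa5 and Hsp90b1 are printed from RefSeq (build GRCr8) 5′ to 3′, with each ERSE found on either strand in capitals. The Hspa5 window is chr3:38452766-38453015 on the plus strand and the Hsp90b1 window chr7:23012294-23012543 on the minus strand.
Hspa5: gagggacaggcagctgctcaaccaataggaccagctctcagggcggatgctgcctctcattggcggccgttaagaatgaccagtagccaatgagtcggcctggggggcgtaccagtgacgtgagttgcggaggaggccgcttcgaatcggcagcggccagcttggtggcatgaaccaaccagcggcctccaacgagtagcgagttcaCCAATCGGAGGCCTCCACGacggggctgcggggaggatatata
Hsp90b1: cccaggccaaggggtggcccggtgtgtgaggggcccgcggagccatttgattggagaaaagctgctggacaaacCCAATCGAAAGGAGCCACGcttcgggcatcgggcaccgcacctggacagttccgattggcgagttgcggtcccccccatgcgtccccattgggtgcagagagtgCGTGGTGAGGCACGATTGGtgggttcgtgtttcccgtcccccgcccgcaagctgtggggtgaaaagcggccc
The element stood 43 to 25 bases before the start of Hspa5. In Hsp90b1 it stood 176 to 158 bases before the start and, on the other strand, 72 to 54 bases before it. It was found in 22 of 33469 RefSeq promoter windows of 250 bases (0.0657%).

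Hspa5 read 278, 271, 312 and 366 CPM in CPF1 against 289 to 513 CPM (median 350) in controls. The pups of litters 16 and 21 were below the lowest control, the pup of litter 63 was above the control median, and the log2 fold change was -0.29 ± 0.13. Hsp90b1 read 347, 317, 353 and 385 CPM against 346 to 467 CPM (median 398), or -0.17 ± 0.08, with all 4 CPF1 pups below the control median. Calr read 522, 500, 554 and 573 CPM against 543 to 670 CPM (median 585), or -0.15 ± 0.06, also with all 4 below that median. Xbp1, the factor itself, gave -0.19 ± 0.10, Dnajc3, a co-chaperone, -0.29 ± 0.16, and Sdf2l1, another partner of Hspa5, -0.45 ± 0.23. Of the 16 tested genes whose promoters held the element, a set formed after the values of Hspa5 were seen, 13 had the lower mean in CPF1, 3 of them at the unadjusted level (Hspa5, Hsp90b1 and Calr), with a median of -0.09. Over all genes tested, 49.3% had the higher mean and 1.31% were lower at the unadjusted level. Since the set includes Hspa5 itself, its count is not a separate test, and the part of the element was not tested. Among the 23 genes of the wider unfolded protein and heat shock list, 17 had the lower mean and 2 were at the unadjusted level (median -0.07), while Atf4, the factor of the PERK branch, and Hspa8, a heat shock cognate of the cytosol, gave 0.09 ± 0.07 and -0.05 ± 0.06. The median of the wider list stayed between -0.11 and -0.05 in all 32 alternatives. With litters 16 and 21 alone Hspa5 gave -0.46 and with litters 60 and 63 alone -0.14.

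Immediate early genes, which neurons switch on within minutes of firing, had a median of 0.13. The higher mean was in 17 of 24 members (49.3% over all genes), 2 of them at the unadjusted level (1.34% over all genes). The highest value came from 1 pup. Fosb read 0.495, 1.62, 6.59 and 0.591 CPM against 0.549 to 1.26 CPM (median 0.910), a log2 fold change of 1.37 ± 0.49. Without the pup of litter 60 it was 0.07. Fos gave 0.46 ± 0.27, Junb 0.48 ± 0.25, Egr2 0.59 ± 0.33, Arc 0.29 ± 0.19 and Egr1 0.09 ± 0.22. Ier5, the other member at the unadjusted level, averaged 21.9 ± 1.54 CPM against 19.2 ± 1.29 CPM (0.19 ± 0.07), and 3 of its 4 CPF1 values were above the highest control. The median of the 24 immediate early genes was 0.08 without the pup of litter 21 and 0.08 without that of litter 60. Brains were removed between 10.55 and 11.59 h in CPF1 and between 10.00 and 12.05 h in controls, and with that time as a covariate no gene was called in edgeR (339 at the unadjusted level).

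Of 22 circadian clock genes, 2 were at the unadjusted level, both with the higher mean in CPF1 (1.34% over all genes). Per2, a repressor of the clock, read 26.1, 26.4, 20.7 and 19.7 CPM against 19.1 to 23.0 CPM (median 19.6), or 0.20 ± 0.08. Nr1d1, the receptor REV-ERB alpha, read 27.8, 37.1, 23.7 and 19.2 CPM against 18.1 to 25.6 CPM (median 21.8), or 0.30 ± 0.14. In both genes the pups of litters 16 and 21 were above every control and the other two inside the control range. Litters 60 and 63 alone gave 0.00 for Per2 and -0.03 for Nr1d1. The glucocorticoid list, in which Ddit4 is also counted, had 12 of 18 members with the higher mean (median 0.06). Of these members 1 was at the unadjusted level. Over all genes tested, 49.3% had the higher mean and 1.34% were higher at that level. Nr3c1, the receptor, averaged 41.7 ± 8.89 CPM against 39.5 ± 5.18 CPM. Fkbp5 and Sgk1, also on that list, differed by -0.05 and -0.03 in mean log2(CPM + 0.5), CPF1 minus controls.

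Genes of dividing cells had the lower mean in 27 of 38 members, 4 at the unadjusted level and 0 on the higher side, with a median of -0.08. Over all genes tested, 49.3% had the higher mean, and 1.31% were lower at the unadjusted level. Top2a, a topoisomerase of replicating cells, read 35.8, 30.9, 33.1 and 34.1 CPM against 29.8 to 44.9 CPM (median 37.7), or -0.19 ± 0.09, so that all 4 CPF1 pups lay inside the control range. Bub1, a spindle checkpoint kinase, averaged 11.5 ± 1.64 CPM against 13.6 ± 1.07 CPM (-0.26 ± 0.10), Racgap1, a cytokinesis protein, 2.08 ± 0.148 CPM against 2.67 ± 0.443 CPM (-0.37 ± 0.15) and Kif11, a spindle motor, 13.3 ± 0.331 CPM against 15.6 ± 1.95 CPM (-0.24 ± 0.10). In bulk tissue, fewer dividing cells and less RNA per dividing cell cannot be told apart. Mki67 gave -0.11 and Pcna 0.06, and Nes, an intermediate filament of progenitors, 15.7 ± 2.36 CPM against 16.5 ± 1.58 CPM. The median for dividing cells was -0.05 without the pup of litter 21 and 0.01 with litters 60 and 63 alone.

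The genes followed in the study's high-dose males, which the study chose on other exposed pups against these same control pups, had the lower mean in CPF1 in 11 of 12 entries, 0 of them at the unadjusted level, with a median of -0.21. The higher mean was in 49.3% of all genes tested. Sox6, a factor of interneurons from the medial ganglionic eminence, read 14.2, 14.2, 11.3 and 12.1 CPM against 9.80 to 23.5 CPM (median 14.9), or -0.34 ± 0.21. Erbb4, the neuregulin receptor of interneurons, read 4.54, 3.81, 2.75 and 2.59 CPM against 2.32 to 7.05 CPM (median 4.53), or -0.37 ± 0.28. No CPF1 pup left the control range for either gene. Gli3, a hedgehog pathway repressor, gave -0.37 ± 0.27 and Pou3f2 0.07 ± 0.20. The median of these 12 entries was -0.12 without CONF pup N2-2y or without CONSC pup 10-2y, and 0.01 with the first 2 principal components as covariates. Among all 24 Sox and Pou genes tested 1 was at the unadjusted level (1.34% of all genes were higher at that level), Sox12, at 8.89 ± 2.43 CPM against 6.66 ± 1.56 CPM.

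For inhibition, 14 of 16 GABA-A receptor subunits had the lower mean in CPF1, where 49.3% of all genes had the higher mean. Of these subunits 1 (Gabrr2, above) was at the unadjusted level (1.31% of all genes were lower at that level), and their median was -0.13. That median was -0.26 without the pup of litter 21, -0.07 without that of litter 60, -0.03 with litters 16 and 21 alone, -0.22 with litters 60 and 63 alone and -0.02 with the first 2 principal components as covariates. Gabrg3 gave -0.62 ± 0.33, while the abundant subunits Gabra2 and Gabra5 gave -0.16 and 0.00. The chloride pump Slc12a5 (KCC2) averaged 214 ± 27.0 CPM against 205 ± 22.2 CPM, and the loader Slc12a2 (NKCC1) 66.3 ± 9.60 CPM against 67.8 ± 9.48 CPM. The KCC2/NKCC1 ratio, which climbs as GABA turns inhibitory, was 3.31 ± 0.831 in CPF1 (2.25 to 4.13) and 3.11 ± 0.703 in controls (2.21 to 4.29). The group means differed by 0.09 on the log2 scale, which did not pass the test (2-sided exact permutation test over all splits of the 13 pups, p = 0.677). The smallest p this test can give is 0.0014. Of 25 glutamate receptor genes, 0 were at the unadjusted level (median -0.05), and of 15 serotonin genes 0.

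Among 65 potassium channel genes, 2 were at the unadjusted level on each side, where all genes gave 1.34% higher and 1.31% lower. Kcnh7, a channel of the ERG family, read 13.7, 16.1, 8.00 and 11.8 CPM against 11.7 to 29.9 CPM (median 19.4), or -0.64 ± 0.23, all 4 below the control median. Kcnb2 gave -0.42 ± 0.19 and Kcnk13 0.39 ± 0.17. In the other lists, single members stood at the unadjusted level: Pde4b, a phosphodiesterase of cAMP, at 36.0 ± 4.04 CPM against 41.2 ± 4.08 CPM (-0.20 ± 0.09), Unc5a, a netrin receptor, at 52.7 ± 6.48 CPM against 45.7 ± 5.23 CPM (0.20 ± 0.09), Cdh5, the cadherin of endothelium, at 8.50 ± 1.55 CPM against 10.5 ± 1.08 CPM (-0.31 ± 0.12), Abcc9, a potassium channel partner in pericytes, at 18.1 ± 1.59 CPM against 21.5 ± 2.28 CPM (-0.24 ± 0.09) and Mdm2, the ligase of p53, at 53.9 ± 2.68 CPM against 49.9 ± 1.40 CPM (0.11 ± 0.05). Pcdhb6, a clustered protocadherin whose reads its near copies can share, gave -0.93 ± 0.35, and -1.40 against CONF alone but -0.37 against CONSC alone. Of the 47 lists, 28 had 0 members at the unadjusted level, and microglial, astrocyte, oligodendrocyte, choroid plexus, thalamic and striatal markers were among them.

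**Figure D4:**
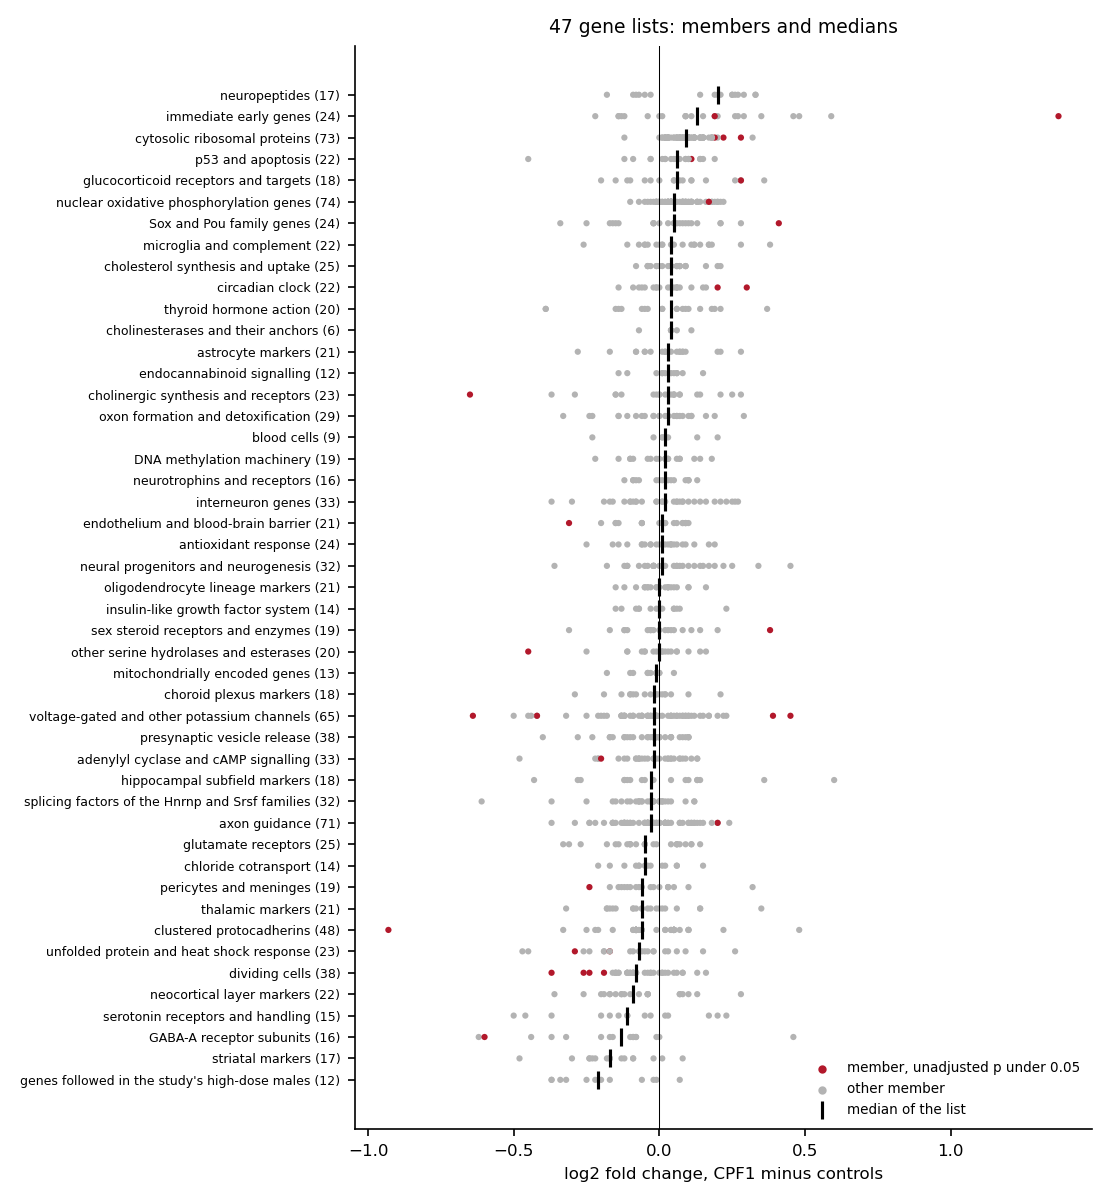
Log2 fold changes, CPF1 minus controls, of the tested members of 47 gene lists (number tested in brackets), with members at an unadjusted p under 0.05 in red and the median of each list as a black bar. List medians run from -0.21 to 0.20, against a median of -0.0016 over all genes, and 71 of 73 ribosomal protein genes lie to the right of 0.

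Ribosomal protein genes had the higher mean in CPF1 in 71 of 73 members, 3 at the unadjusted level, with a median of 0.09, and nuclear genes of oxidative phosphorylation in 63 of 74, 1 at that level, with a median of 0.05. All genes tested gave 49.3% with the higher mean and 1.34% higher at the unadjusted level. Rps21 read 127, 122, 165 and 125 CPM against 95 to 137 CPM (median 114), or 0.22 ± 0.10, and Rplp1 averaged 160 ± 18.8 CPM against 132 ± 24.8 CPM (0.28 ± 0.13). Summed over the list, ribosomal protein genes came to 18330 to 22064 CPM in CPF1 and 17318 to 21103 CPM in controls, ranges that overlap. The direction of both lists was the same without TMM scaling and with the size factors of DESeq2. With litters 16 and 21 alone 42 of 73 ribosomal genes had the higher mean, with a median of 0.01. Without the pup of litter 60 the median of the cytosolic ribosomal proteins was 0.05. Mitochondrially encoded genes had a median of -0.01.

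Several of the lists share a property, the length of their genes. Of the ribosomal genes 69 of 73, and of the oxidative phosphorylation genes 51 of 74, were in the shortest of 4 equal bins of gene span (at most 10.1 kb in the GRCr8 annotation), while 10 of 16 GABA-A subunits, 10 of 12 genes the study followed and 19 of 25 glutamate receptor genes were in the longest (63.5 kb or more). Over all 14761 genes with a span, 94.5% of those tested, 70.1% of the shortest bin and 27.3% of the longest had the higher mean in CPF1. The median of the longest minus that of the shortest bin, on the log2 scale and relative to the controls' mean, was -0.04, -0.03, -0.21 and -0.12 in the CPF1 pups and ran from -0.22 to 0.18 in controls. The group means differed by -0.10, which did not pass the test (2-sided exact permutation test, p = 0.228). Immediate early genes, with 18 of 24 in the shortest bin, had a median of 0.13. Other lists did not follow gene length. The unfolded protein and heat shock list had 13 of 22 entries in the shortest bin and 1 in the longest, with a median of -0.07. Dividing cells had 10 of 38 and 1, with a median of -0.08. The part of gene length in the medians of the lists was not tested.

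**Figure D5:**
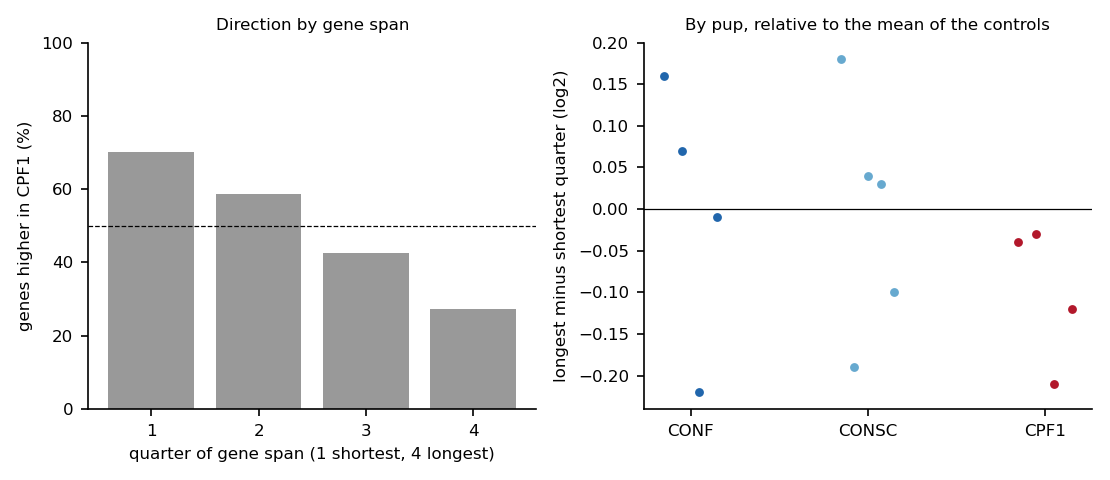
Left, the share of genes with the higher mean in CPF1 in each of 4 equal bins of gene span, from 70.1% in the shortest to 27.3% in the longest, with a dashed line at 50%. Right, the median log2 value of the longest minus the shortest bin in each pup relative to the mean of the controls, where all 4 CPF1 pups are below 0 and inside the control range of -0.22 to 0.18.

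The 3 first-named genes of each list were also tested by permutation of the pups, free of a count model. Of 137 such genes, 0 had a 2-sided exact permutation p under 0.05, the smallest being 0.0657 for Per1, and the smallest value adjusted over the 137 was 0.972. The smallest unadjusted p this test can give is 0.0014. A single gene could therefore not pass after adjustment over 137 genes, and the adjusted values cannot decide whether single genes differed.

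Against the other low-dose groups, CPF1 was compared directly. CPF1 dams were injected and the dams of these other groups were fed, so compound and route cannot be told apart. Males of dams fed 0.5 mg/kg bisphenol A (BPA05, 4 pups) differed from CPF1 in 4 of 16139 genes (0.0248%, edgeR adjusted p under 0.05). Sumo2l (log2 difference 0.72 ± 0.12, adjusted p = 0.0243), RGD1563441 (1.14 ± 0.18, adjusted p = 0.0243) and LOC100361457 (1.12 ± 0.20, adjusted p = 0.0392) were higher in CPF1, and Pdcd4, a translation repressor, was lower (-0.45 ± 0.08, adjusted p = 0.0392). These 4 names were chosen after their values were seen. Against their controls, CPF1 pups gave 0.19, 0.29, 0.11 and -0.12 for Sumo2l, RGD1563441, LOC100361457 and Pdcd4, and BPA05 pups -0.52, -0.84, -1.0 and 0.34, with the same controls in both. In a fit of CPF1 and BPA05 pups alone 0 genes were called (1104 at the unadjusted level), and leaving out the pup of litter 16 or 21 left 1 call and that of litter 60 or 63 left 0. Males of dams fed 0.5 mg/kg Aroclor 1254 (Aro05, 4 pups) differed from CPF1 in 0 of 16139 genes (0%) in edgeR, with 1171 at the unadjusted level.

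The higher dose of the same compound, 3 mg/kg (CPF3, 7 male pups), gave 18 genes of 15680 (0.115%) against these controls, and CPF3 and CPF1 differed directly in 15 of 16153 genes (0.0929%). Those comparisons share the control pups, and CPF3 libraries carry another form of name than CPF1 libraries. Dose and form of name thus cannot be told apart, and the labels do not say what the form stands for. The 2 libraries of control pup N2-2y, 1 of each form, had a median chi-square per gene of 5.78 between them, against 1.29 to 2.48 between the libraries of different CPF1 pups. With only libraries of the form that CPF1 carries, 0 genes were called between CPF1 and controls in edgeR (359 at the unadjusted level). Of the 18 genes called in CPF3, 7 were higher and 11 lower than in controls. The largest falls were in LOC102555797 (-6.87 ± 0.50), RGD1562404 (-5.99 ± 0.54), Ybx1-ps4 (-4.28 ± 0.39) and LOC297756 (-3.47 ± 0.41). These entries averaged 0.81 to 2.64 CPM in controls and were also called between CPF3 and CPF1. In CPF1 they gave 0.40, 0.46, 0.20 and 0.11. Emx1, a factor of cortical and hippocampal neurons, gave 0.88 ± 0.17 in CPF3 (adjusted p = 0.0423) and 0.34 ± 0.21 in CPF1, and the direct difference was 0.55 ± 0.25 (adjusted p = 0.37). Neurod2, a factor of maturing excitatory neurons, gave 0.59 ± 0.11 in CPF3 (adjusted p = 0.0249) and 0.07 ± 0.14 in CPF1, a difference of 0.52 ± 0.15 (adjusted p = 0.296). ND6, a mitochondrial subunit of complex I encoded on the light strand, gave -0.87 ± 0.09 in CPF3 (adjusted p = 2.48e-05) and -0.18 ± 0.10 in CPF1, and differed directly by -0.69 ± 0.11 (adjusted p = 0.00239). Hnrnph3, a splicing factor, gave 0.68 ± 0.11 in CPF3 (adjusted p = 0.0119) and -0.10 ± 0.14 in CPF1, and differed by 0.79 ± 0.15 (adjusted p = 0.037). The CPF1 values of Emx1 turned from 0.75 with litters 16 and 21 alone to -0.27 with litters 60 and 63 alone, those of Neurod2 from 0.29 to -0.19 and those of Hnrnph3 from -0.36 to 0.11, while ND6 gave -0.30 and -0.07. For Emx1 and Neurod2 the direct difference between the doses thus missed the threshold, which does not show that they were alike. Hspa5 and Clmn, described above, gave -0.40 ± 0.11 and -0.46 ± 0.10 in CPF3, with no call (adjusted p = 0.17 and 0.109).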

How the data were processed

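Dorsal hippocampus RNA of single pups was made into TruSeq stranded mRNA libraries. The deposited files hold raw read counts per gene, which the authors made with STAR and featureCounts on Rnor_6.0 (versions not given in the sources used here). Groups came from the labels, and the 2 libraries of control pup N2-2y were summed. CPF1 males (4) were compared with male controls (9) in edgeR 4.0.16 (R 4.3.3): filterByExpr, TMM, quasi-likelihood F test, Benjamini-Hochberg adjustment over 15618 of 37777 genes. SE is the fold change over the root of F. The alternatives included DESeq2 (version 1.42.0) and voom weights from limma (version 3.58.1). The test was checked on simulated data. CPF1 was set against BPA05 and Aro05 in 1 fit with the controls, and CPF3 against the controls and against CPF1 in fits of its own. CPM values are TMM-scaled. Permutation tests used log2(CPM + 0.5), except that of the KCC2/NKCC1 ratio, which used the log2 ratio of CPM with nothing added. Totals of 10777044 to 34218370 reads set the precision of low genes, and intervals for counts cover counting error only.

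The 47 gene lists, their anchors and the comparison itself were chosen with earlier results of these data known. Genes were named by a rule: any called gene, the 12 higher and 12 lower with the smallest unadjusted p, an average of at least 1 CPM and a symbol not beginning LOC, RGD or AABR, the 3 first-named genes and the extreme members of each list, genes called in an alternative, and sex-check genes. Others are members of the lists or of the promoter set, or were named after their values were seen (Calr, Dnajc3, RT1-N2, and the genes of the other exposed groups). Names were matched to RefSeq by gene ID. Gene spans and promoter sequences are RefSeq's (GRCr8), a build other than that of the files.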

Additional observations from a re-analysis of the deposited data

Results flagged for a closer look

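Among 60 groups of pups tested for a value far from the others (genes whose pup values are given above, CPF1 and controls apart), 3 held one, and chance alone sets apart about 1 in 20 such groups. Within CPF1, the pup of litter 60 stood apart for Ddit4 at 61.1 CPM (the other 3 between 48.0 and 49.1 CPM) and for Rps21 at 165 CPM (the others between 122 and 127 CPM). Within controls, CONF pup N3-4y stood apart for Ces5a at 4.37 CPM. What set these values apart was not tested. Leaving out the pup of litter 60 left 0 genes called in edgeR.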

How the results depend on the processing

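No paired analysis was possible because CPF1 and control pups share no litter and the replicate numbers follow accession order only. Of 32 alternatives, 30 left 0 genes changed in CPF1 males, as in the analysis reported. Exceptions were the 4 CONF pups as sole controls (2 genes) and CPF1 litters 60 and 63 alone (1 gene, Pmch). Leaving out each pup in turn called 0 genes, with 229 to 835 at an unadjusted p under 0.05, against 414 with all pups and 189 to 1290 under the other alternatives. That count was 835 without CONF pup N4-7y, 668 without CONSC pup 11-4y, 273 without CONSC pup 10-2y and 229 without the CPF1 pup of litter 60, and the cause was not tested. The first 2 principal components, and striatal and thalamic marker levels, were added as covariates after seeing the data, and 0 genes were called with either (495 and 1290 at the unadjusted level). Of 272 named genes, 119 had a change of sign in at least 1 alternative. For CPF1 against BPA05 the 4 calls became 0 with the 2 groups alone and 0 to 1 without 1 CPF1 pup, while DESeq2 gave 141 CPF3 genes in place of 18. The exact tests called 0 genes with a pseudocount of 1 CPM, without TMM or against CONSC alone. In none of these settings could a single gene pass the adjustment over 137 genes, least of all against CONSC alone with 126 splits. Those 0 calls thus cannot decide whether single genes differed. The KCC2/NKCC1 difference was 0.10 on the log2 scale against CONSC alone, also tried after seeing the data (exact permutation p = 0.722 over 126 splits).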
